A study of Mus musculus with 8 samples.

Results

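Chemokines and cytokines are small secreted proteins through which fibroblasts speak to leukocytes and to other cells. Chemokines act on G protein-coupled receptors and guide the migration of cells. They are named after the spacing of their first cysteines, adjacent in CC chemokines and separated by 1 residue in CXC chemokines. Many of their genes are transcribed on demand under NF-κB and related factors, and many of their mRNAs carry AU-rich elements in the 3′UTR, short sequences built around ATTTA that are known for rapid mRNA decay. The 6 genes examined here are Ccl2 and Ccl7, CC chemokines that attract monocytes through CCR2 and related receptors; Cxcl1, a CXC chemokine that attracts neutrophils through CXCR2; Cxcl12, the ligand of CXCR4; Csf1, the growth factor of macrophages; and Lif, a cytokine of the IL-6 family. They were taken by name from the deposited tables of genes, and all 6 were present in each of the 3 tables, out of 9875 genes that were in all 3 and 10690 that were in at least 1. These members and the gene lists below were chosen with earlier results of these data known. Their counts and medians beside those of all genes are therefore a description and not a test.

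The libraries were QuantSeq FWD libraries, which read mRNAs near their poly(A) site (PAS), from NIH3T3 cells, an established line of proliferating mouse fibroblasts. Nontreated cells (NT) were compared with cells kept for 1 h in 250 μM sodium arsenite (AS), an agent of oxidative and proteotoxic stress. They were also compared with cells that after this hour were washed with phosphate-buffered saline and returned to regular medium, RC4 for 4 h and RC8 for 8 h. The methods describe no such wash for NT or AS, and its part in the levels was not tested. All 4 conditions were grown with calf serum in the same medium and have 1 library each, and the 3 comparisons share the NT library, so that no spread between cultures can be given and no P value was computed. Read numbers on genes were 22.4 M to 23.0 M per library, and levels are given as RPM, that is, reads of a gene per 1 M reads on genes, a share of the library rather than an amount per cell. The intervals are 95% intervals of the counting of reads, and they cover counting error only, since PCR copies of 1 molecule were not told apart in these reads. Of 14 fibroblast markers, 13 were listed in each table and Lum was not, whereas of 15 leukocyte, endothelial and epithelial markers the tables listed Csf1r and Cd14 for AS and Cd14 alone for RC4 and RC8. Of 12 genes known to be induced by arsenite, 9 were listed in each table, and Hspa1a, Atf3 and Fos were not. Of these 9, 8 were at least 2-fold higher than NT in RC4, beside 5 in AS and 6 in RC8. Over all genes, the shares at least 2-fold higher were 3.69% in RC4, 0.622% in AS and 2.97% in RC8.

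The 4 genes with a single listed PAS were Ccl2, Ccl7, Cxcl1 and Lif. Their 3′ ends are shown because the authors' model assigned all reads of these genes to the listed PAS. That model used a threshold of 5%, so that minor PASs may not be listed. The mm9 sequence close to the PAS is given in lower case. Capitals mark the poly(A) signal AATAAA, or ATTAAA where AATAAA was not present within 40 nt upstream of the PAS. The stretch of Ccl2 begins 5 nt before its signal, which is 31 nt from the PAS, and the other stretches end at the PAS itself.
Ccl2, chr11:81850920-81850949, plus strand: ttattATTAAAagaaatatattatttttgt
Ccl7, chr11:81860953-81860982, plus strand: ataatgttatgatactgtgtggtttttaaa
Cxcl1, chr5:91322118-91322147, plus strand: aagtaaaAATAAAagttttattaaaaaaaa
Lif, chr11:4172488-4172517, plus strand: atgaaatAATAAAgaactcattcttgttga
Either hexamer was present within 40 nt of 53.0% of the 18102 listed PASs in 3′-most exons. Ccl7 had neither in that window, which says only that these letters are not there. In the GENCODE vM1 annotation the PASs of Ccl2, Ccl7 and Lif lie in the 3′UTR of the last exon, at its end in Ccl2 and Lif and 45 nt before it in Ccl7, whereas that of Cxcl1 lies just beyond the annotated end of the gene at 91322141. On chromosome 11, Ccl2 (81849073 to 81850955) and Ccl7 (81859214 to 81861027) lie next to each other on the plus strand, 8259 nt apart. The longest run of bases that their 3′UTRs share is 9 nt.

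Ccl2, Ccl7 and Cxcl1 were between 80.8% and 125.2% of their NT levels after the hour of arsenite and at 15.6% to 30.4% of them after 4 h and 8 h of recovery. Ccl2 was at 1519 RPM in NT and 1227 in AS, as compared with 346 in RC4 and 380.5 in RC8. Ccl7, its neighbour, went from 757 RPM (NT) and 623 (AS) to 226 (RC4) and 230.1 (RC8). For Cxcl1, levels of 1254 RPM in NT and 1570 in AS stood against 195.5 in RC4 and 351 in RC8. All 3 genes were thus high in NT and AS and low in both recovery libraries, with no overlap between the counting intervals of the first and the last pair. In such bulk libraries, fewer cells that express a gene and less of its RNA per cell cannot be told apart. As a sum, the 6 genes took 0.396% of all reads on genes in NT and 0.383% in AS, then 0.131% after 4 h and 0.146% after 8 h of recovery.

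**Figure D1:**
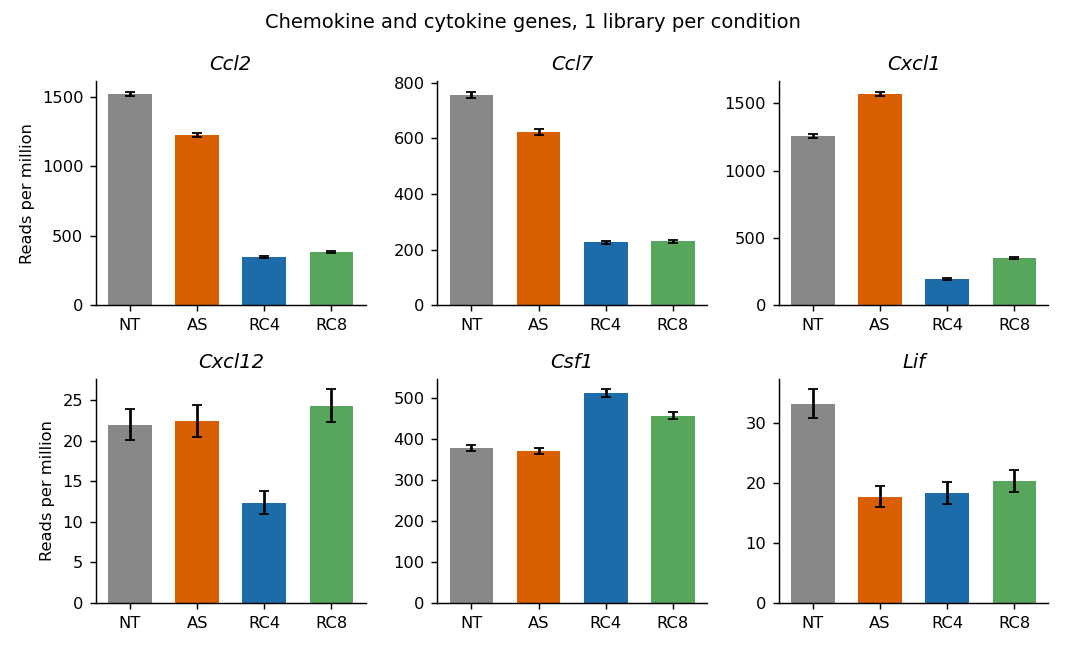
Levels of the 6 genes in RPM, in the 1 library of each condition, with error bars for the 95% Poisson interval of the read count. Ccl2, Ccl7 and Cxcl1 stood between 623 and 1570 RPM in NT and AS and between 195.5 and 380.5 RPM in RC4 and RC8, whereas Csf1 was highest in RC4 (511 RPM).

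In AS, the 3 chemokine genes did not differ from NT in the same direction. Ccl2 was at 80.8% of NT, a log2 ratio of −0.31 (−0.33 to −0.29), and Ccl7 was at 82.4% (−0.28, −0.31 to −0.25). Cxcl1 was 1.25-fold higher than NT, with a log2 ratio of 0.32 (0.30 to 0.35), and 6.75% of all genes had a higher ratio. None of the 6 genes was 2-fold higher or lower in AS. Over all 10452 genes of that table, 0.622% were at least 2-fold higher and 3.22% at least 2-fold lower.

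In RC4, Cxcl1 was at 15.6% of NT (log2 ratio −2.68, −2.73 to −2.64), and only 20 of 10081 genes of the table had a lower ratio. Ccl2 was at 22.7% of NT (−2.14, −2.17 to −2.10), with 77 genes lower. Ccl7 was at 29.8% (−1.75, −1.79 to −1.70), with 222 genes lower. Seen from the end of arsenite, Cxcl1 in RC4 was at 12.5% of AS, Ccl2 at 28.2% and Ccl7 at 36.2%. Thus 3 of the 6 genes were at least 2-fold lower in RC4 and none was 2-fold higher, beside 13.4% and 3.69% of all genes. The median of the log2 ratio was −1.31 over the 6 genes and −0.30 over all genes of the RC4 table. When the ratios were instead scaled so that the median gene had a log2 ratio of 0, the shares of all genes were 6.38% on either side, and the 3 chemokine genes had log2 ratios of −2.38 (Cxcl1), −1.83 (Ccl2) and −1.45 (Ccl7).

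In RC8, the 3 genes were still low, and of them Cxcl1 had the highest ratio of RC8 over RC4. Ccl2 was at 25.04% of NT (log2 ratio −2.0, −2.03 to −1.96), Cxcl1 at 28.0% (−1.84, −1.87 to −1.80) and Ccl7 at 30.4% (−1.72, −1.76 to −1.67). They were the 3 members at least 2-fold lower in RC8, and none was 2-fold higher, beside 3.53% and 2.97% of all genes. Between 23 and 47 of the 10441 genes in that table had a lower ratio than each of them. From RC4 to RC8, the log2 ratio was 0.84 for Cxcl1 (0.79 to 0.90), 0.14 for Ccl2 (0.09 to 0.18) and 0.03 for Ccl7 (−0.03 to 0.08), the last with an interval that includes no difference. The median log2 ratio was −1.21 over the 6 genes in RC8 and 0.01 over all genes.

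**Figure D2:**
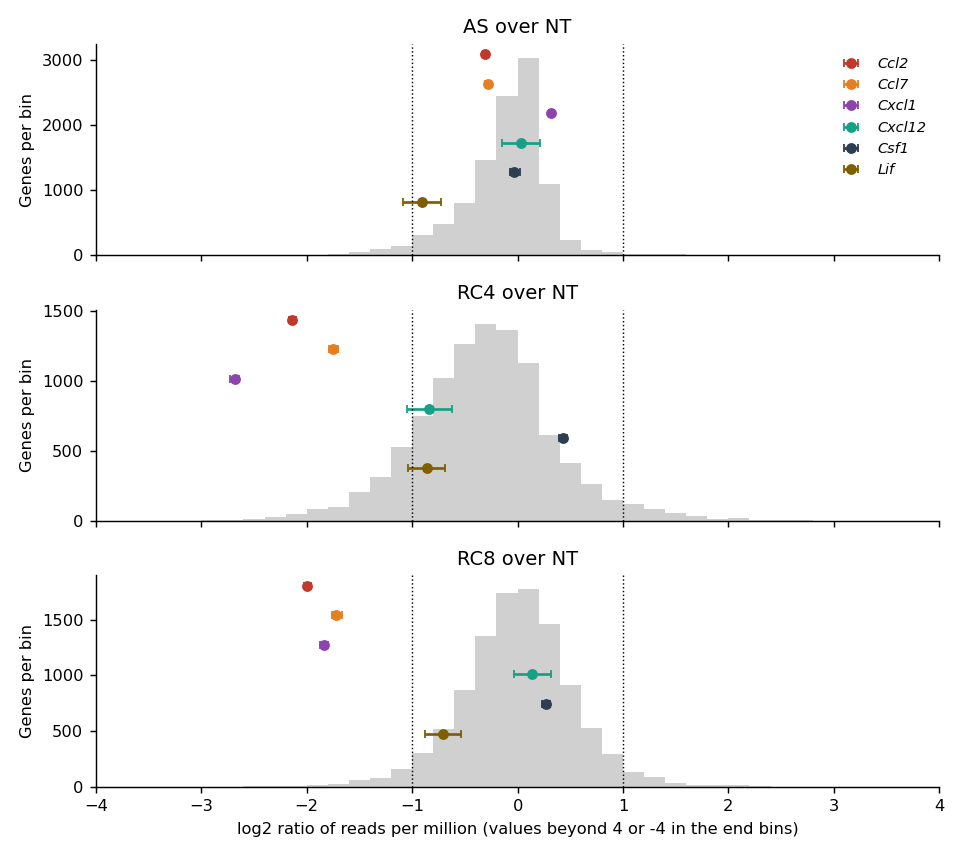
Histograms (grey) of the log2 ratio of RPM over NT for all genes of each table, in bins of equal width, with the 6 genes as points at arbitrary heights and their 95% counting intervals as horizontal bars; dotted lines mark 2-fold. Ccl2, Ccl7 and Cxcl1 lie within 2-fold of NT in AS (−0.31 to 0.32) and far to the left in RC4 (−1.75 to −2.68) and RC8 (−1.72 to −2.0).

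Lif, which signals through LIFR and gp130, was the gene of the 6 with the lowest ratio at the end of arsenite. Its 747 reads in NT were 33.1 RPM, and it had 17.6 RPM in AS (396 reads), 18.2 after 4 h (417 reads) and 20.2 after 8 h of recovery (465 reads). NT stood apart from the other 3 libraries, whose counting intervals overlap one another. AS had a log2 ratio of −0.91 (−1.09 to −0.73), RC4 of −0.86 (−1.04 to −0.69) and RC8 of −0.71 (−0.88 to −0.54). A lower ratio than that of Lif was seen for 4.40% of all genes of the AS table, 18.4% for RC4 and 8.24% for RC8. Lif did not reach 2-fold in any comparison.

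Csf1, by contrast, was higher in both recovery libraries than in NT. NT and AS had 377 and 370.4 RPM, RC4 had 511 and RC8 had 456. AS and NT did not differ beyond counting error, with a log2 ratio of −0.03 (−0.07 to 0.02). The log2 ratio was 0.43 in RC4 (0.39 to 0.47) and 0.27 in RC8 (0.23 to 0.31), where 11.1% and 28.1% of all genes had higher ratios. With the median gene set to 0, the RC4 value was 0.74.

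Cxcl12 had the fewest reads of the 6 genes in NT, 496, and was low in RC4 only. NT and AS had 21.96 and 22.4 RPM, RC4 had 12.3 and RC8 had 24.3. Its log2 ratio over NT was −0.84 in RC4 (−1.05 to −0.62), as compared with 0.03 in AS (−0.15 to 0.21) and 0.14 in RC8 (−0.03 to 0.32), so that AS and RC8 did not differ from NT beyond counting error. With the median gene set to 0, the RC4 value was −0.53, and 19.3% of all genes had a lower ratio than Cxcl12 in that library. Cxcl12 was 1.97-fold higher in RC8 than in RC4 (1.70 to 2.28).

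Csf1 and Cxcl12 were also the genes with more than 1 listed PAS, while the other 4 had 1 PAS in every table, as did 47.0% to 49.4% of all genes. In both genes the upstream PAS is listed as intronic, and in the GENCODE vM1 annotation it lies in the last exon of a shorter transcript. For Csf1, on the minus strand of chromosome 3, the transcript Csf1-002 ends in an exon from 107548532 to 107548758 and Csf1-001 in an exon from 107543966 to 107546063. Their stop codon is the same and lies in the exon before, so that both code for 552 residues and only the 3′UTR differs. For Cxcl12, on the plus strand of chromosome 6, Cxcl12-001 ends in an exon from 117123510 to 117125087 and codes for 89 residues. The transcripts that reach the distal PAS, Cxcl12-002 and Cxcl12-003, splice out of that exon and code for 93 and 119 residues, which differ at the C-terminus, and the reads at the distal PAS do not tell them apart. The sequences that end at the PASs of both genes are shown because the 2 genes used these sites in different proportions across the libraries, with capitals for AATAAA or ATTAAA as above.
Csf1 intronic PAS, chr3:107548581-107548610, minus strand: tcgtgcagattaagatcacattagttttaa
Csf1 proximal PAS of the 3′-most exon, chr3:107544237-107544266, minus strand: atattATTAAAgacagaagagaaaatccaa
Csf1 distal PAS of the 3′-most exon, chr3:107544020-107544049, minus strand: aaggtcatttaaatatctatttaaaaaata
Cxcl12 intronic PAS in RC4, chr6:117125004-117125033, plus strand: AATAAAatgctaattgtttcatgctgtaaa
Cxcl12 intronic PAS in AS and RC8, chr6:117124958-117124987, plus strand: ccacttggaatgaaattgtatcaactgtga
Cxcl12 distal PAS in RC4 and RC8, chr6:117131356-117131385, plus strand: tttcctAATAAAgttctgtattcaaatata
Cxcl12 distal PAS in AS, chr6:117131271-117131300, plus strand: tatttttaatatatgacagttatttgagaa
The tables name 2 intronic positions of Cxcl12 that are 46 nt apart and 2 distal ones that are 85 nt apart, 1 of each per table. The NT fractions were the same in all 3 tables, and the positions were therefore treated as 1 intronic and 1 distal site.

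**Figure D3:**
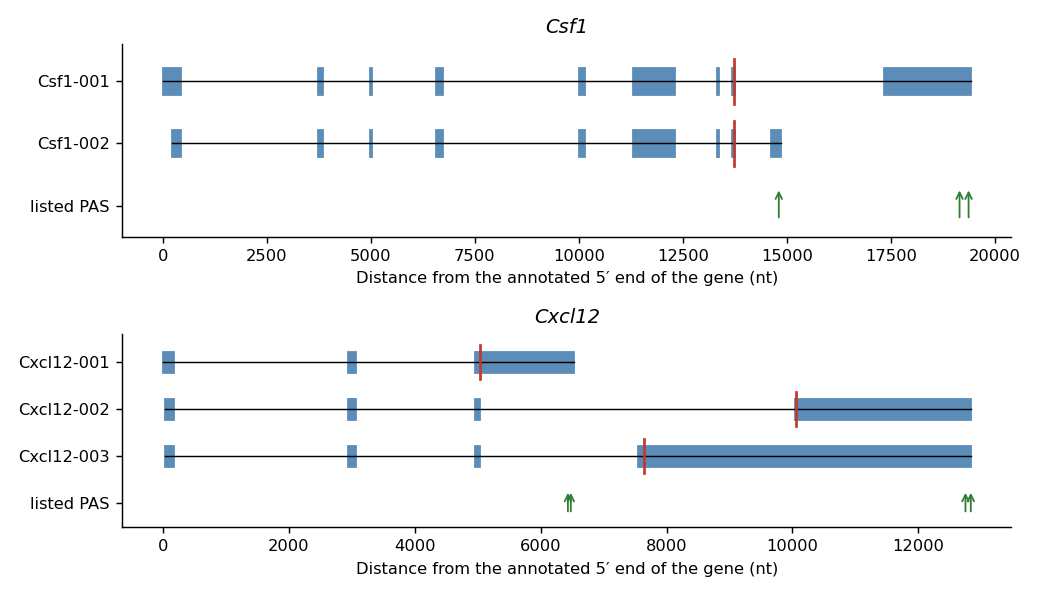
Transcripts of Csf1 and Cxcl12 in GENCODE vM1 (exons as boxes, stop codons as red lines) and the listed PASs (green arrows), by distance in nt from the annotated 5′ end of the gene. The intronic PAS of each gene falls in the last exon of its shorter transcript, 4561 nt upstream of the distal PAS in Csf1 and 6352 nt in Cxcl12 (RC4 positions).

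The intronic PAS of Csf1 held a larger share of reads in RC4. Of the 8517 reads of the gene in NT it held 10.9% (10.3% to 11.6%, 95% Wilson interval), and it held 17.1% in RC4 (16.4% to 17.8%), beside 11.8% in AS (11.1% to 12.5%) and 12.4% in RC8 (11.8% to 13.0%). RC4 thus stood above the other 3 libraries, and the interval of RC8 did not reach that of NT. In RPM, transcripts ending at the intronic PAS were at 41.2 in NT and 87.4 in RC4, a ratio of 2.12 (1.96 to 2.29), whereas those at the distal PAS were at 320 and 384, a ratio of 1.2 (1.16 to 1.24). The table for RC4 also lists a PAS 217 nt upstream of the distal one in the same exon, which held 4.49% of NT reads and 7.67% of RC4 reads, with a ratio in RPM of 2.31 (2.04 to 2.60). REDu, the log2 ratio of distal over proximal PAS of the 3′-most exon in RC4 minus that in NT, was −0.94 with a counting error of 0.09. This counting error, like those of the log2 changes below, is a standard error and not a 95% interval. For the 3′-most exon over the intronic PAS, the log2 ratio changed by −0.75 in RC4 (counting error 0.06), as compared with −0.13 in AS (0.07) and −0.21 in RC8 (0.07).

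In Cxcl12 the intronic PAS, that of the 89-residue form, held a smaller share in RC4 and RC8 than in NT. It held 35.5% of the reads in NT (31.4% to 39.8%) and 20.9% in RC4 (16.6% to 26.0%), beside 28.8% in AS (25% to 32.9%) and 22% in RC8 (18.8% to 25.6%). The intervals of NT and AS overlap, and those of RC4 and RC8 lie below that of NT. Transcripts ending at the intronic PAS went from 7.81 RPM in NT to 2.57 in RC4 (ratio 0.329, 0.241 to 0.445), those at the distal PAS from 14.2 to 9.74 (ratio 0.686, 0.575 to 0.816). In RC8, the intronic form was at 5.34 RPM, a ratio of 0.684 (0.54 to 0.869), and the distal form at 18.9 RPM, a ratio of 1.34 (1.15 to 1.55), so that they stood on opposite sides of their NT levels while the total of the gene did not differ from NT beyond counting error. The log2 ratio of the 3′-most exon over the intronic PAS changed by 1.06 in RC4 (counting error 0.25), 0.96 in RC8 (0.2) and 0.44 in AS (0.2). In RC4 and RC8 this was opposite in sign to Csf1. For AS the interval of the intronic share overlaps that of NT in both genes, which is not a test of their difference. The log2 change in AS was 0.44 in Cxcl12 (counting error 0.2) and −0.13 in Csf1 (0.07). That of Csf1 is too small beside its error to establish an opposite sign in AS. A change of at least 10 percentage points in a PAS was seen for neither gene in AS and for Cxcl12 in RC4 and RC8. Among all genes with more than 1 PAS, the shares were 15.3% in AS, 29.1% in RC4 and 27% in RC8. Fractions come from the assignment of reads to PASs by a model, and the Wilson intervals do not include the error of that assignment.

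**Figure D4:**
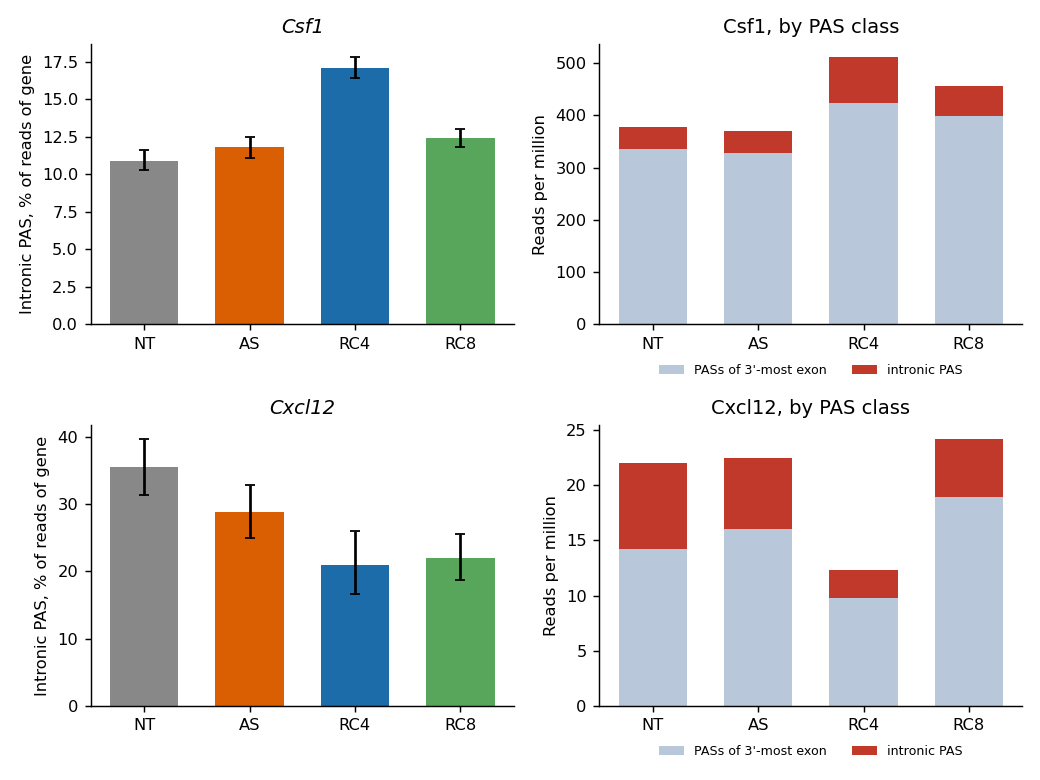
Left, share of the reads of Csf1 and Cxcl12 at the intronic PAS in each library, with 95% Wilson intervals; right, RPM at the intronic PAS (red) and at PASs of the 3′-most exon (light blue), stacked. Between NT and RC4 the share was 10.9% and 17.1% in Csf1, and 35.5% and 20.9% in Cxcl12.

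The 3′UTRs of the 6 genes differ in the ATTTA motif of AU-rich elements. ATTTA, and the longer TTATTTATT that contains it, were counted on the sense strand of the annotated spliced 3′UTR up to the listed PAS, with overlaps counted, and the share of other genes was taken from 3′ stretches of the same length in longer annotated 3′UTRs. Cxcl1 had 7 ATTTA in 592 nt, a number reached by 0.296% of 6417 such stretches, and 2 TTATTTATT, which 0.468% reached. Lif had 7 ATTTA and 2 TTATTTATT as well, but in 3180 nt, where 36.2% of 1190 stretches reached the first number and 2.94% the second. Ccl2 had 1 ATTTA in 275 nt and Ccl7 had 2 in 390 nt, numbers that 42.0% and 20.8% of stretches of these lengths reached. In Csf1, the 3′UTR that ends at the distal PAS had 3 ATTTA in 2057 nt, that of the PAS 217 nt upstream had 1 in 1840 nt, and that of the intronic PAS had none in 191 nt, as compared with at least 1 in 34.2% of stretches of this length. Cxcl12 had 2 in the 1433 nt that end at the intronic PAS of RC4, a number that 64.7% of stretches reached, and at the distal PAS 3 in the 2768 nt of Cxcl12-002 (75.2%). No 3′UTR of Ccl2, Ccl7, Csf1 or Cxcl12 had TTATTTATT. The 30 nt with the most ATTTA are shown for Cxcl1, the gene with the lowest ratio in RC4, and for Lif and Csf1, with ATTTA in capitals.
Cxcl1, chr5:91321628-91321657, plus strand: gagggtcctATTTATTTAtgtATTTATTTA
Lif, chr11:4172417-4172446, plus strand: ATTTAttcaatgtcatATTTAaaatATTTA
Csf1, chr3:107544027-107544056, minus strand: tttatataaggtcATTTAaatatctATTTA
The stretch of Csf1 lies between its 2 PASs of the 3′-most exon and is thus present only in transcripts that end at the distal one. These matches describe the sequence and do not show that any protein binds there.

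For the promoters, RefSeq sequences on GRCm38.p6, each with 250 nt before the start and 50 nt after it, were at hand for Cxcl1, Cxcl12, Csf1 and Lif. The consensus of NF-κB, searched on both strands, matched in Cxcl1 and Csf1, beside 5.91% of the 7771 genes of the tables with such a sequence. Cxcl12 and Lif had no match, and Ccl2 and Ccl7 could not be searched because no such sequence was at hand. Cxcl1 and Csf1 had the lowest and the highest ratio of the 6 genes in RC4. A part of the matches in these levels was not tested. The matches are shown in capitals, and that of Cxcl1, which starts 71 nt upstream of the transcription start, also matches on the other strand with a shift of 1 nt.
Cxcl1, chr5:90891164-90891193, plus strand: cctgtactccGGGAATTTCCctggcccgga
Csf1, chr3:107760604-107760633, minus strand: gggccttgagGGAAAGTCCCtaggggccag

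Among 23 other chemokine genes, the tables listed 3, and only Cxcl5, a CXC chemokine that, like Cxcl1, attracts neutrophils, passed 2-fold. Cxcl5 had 3600 RPM in NT and 3070 in AS but 390 RPM in RC4 and 830 in RC8, with log2 ratios of −0.23, −3.21 and −2.12. At least 2-fold lower were 13.4% of all genes in RC4 and 3.53% in RC8. The high and low libraries of Cxcl5 were thus those of Ccl2, Ccl7 and Cxcl1. Ccl8, a CC chemokine gene, had log2 ratios of −0.23, 0.62 and 0.36 at 5.97 to 10.7 RPM. Ccl25 had ratios of 0.22, 0.27 and −0.51.

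Other cytokine genes past 2-fold in recovery were higher, not lower, than NT. Of 9 listed for RC4, 4 were at least 2-fold higher and none lower, beside 3.69% and 13.4% of all genes. Il11, which like Lif signals through gp130, had 21.3 RPM in NT and 18.8 in AS but 119 RPM in RC4 and 37.6 in RC8, a log2 ratio of 2.47 in RC4. Clcf1, a further gp130 cytokine, had a log2 ratio of 1.22 in RC4 and 0.94 in RC8. Il34, which shares the receptor CSF1R with Csf1, was at 10.1 RPM in NT and 25.7 in RC4 (log2 ratio 1.34) and had 24.4 RPM in RC8 (1.27), the only one of 8 listed genes past 2-fold there. Kitl, the ligand of KIT, had a log2 ratio of 1.37 in RC4. None of the 10 listed for AS passed 2-fold. Among all genes, 0.622% were at least 2-fold higher and 3.22% lower in AS, as compared with 2.97% and 3.53% in RC8. The median log2 ratio of the list was −0.08 for AS, 0.09 for RC4 and 0.40 for RC8, beside −0.04, −0.30 and 0.01 over all genes.

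Of the receptors of the 6 proteins, the tables listed few. Ccr1, Ccr2, Cxcr2 and Cxcr4 were not listed, and tables list a gene only where both libraries had 50 reads or more. Ackr3, the atypical receptor of CXCL12, had 22.5 RPM in NT and between 28.3 and 34.2 RPM in the other libraries, and Csf1r, the receptor of CSF1 and IL-34, was listed for AS only (5.62 RPM in NT and 4.81 in AS). For LIF, Il6st, which codes for gp130, had log2 ratios of −0.73, −0.55 and −0.53, and Lifr −0.65, −0.21 and −0.50. Osmr, the receptor of oncostatin M that pairs with gp130, was at least 2-fold lower in RC4 and RC8 (−1.39 and −1.23). Of the JAK kinase genes, Jak2 was 2-fold lower in AS (−1.05) and Tyk2 in RC4 (−1.0). In all, 1 of 10 listed genes of this group was 2-fold lower for AS, 2 of 9 for RC4 and 1 of 9 for RC8, and none was higher. Over all genes, the shares at least 2-fold lower were 3.22%, 13.4% and 3.53%, and those at least 2-fold higher 0.622%, 3.69% and 2.97%. With the median gene set to 0, 1 was lower in RC4.

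Of 19 NF-κB factors, inhibitors and targets listed for RC4, 5 were at least 2-fold lower and 1 was higher, beside 13.4% and 3.69% of all genes. The lower ones included Vcam1, an adhesion molecule for leukocytes (110 RPM in NT and 26.7 in RC4, log2 ratio −2.04), Birc2 (−1.86) and Birc3 (−1.08), which code for ubiquitin ligases of TNF receptor signalling, and Nfkbiz (−1.68), an IκB protein of the nucleus. Ptgs2, which makes prostaglandins, went the other way, with 390 RPM in NT and 401 in AS but 1590 RPM in RC4 and 521 in RC8. Nfkbia, the IκBα gene and a feedback target of NF-κB, had, like Cxcl1, a ratio above NT in AS and below NT in recovery, but no 2-fold change (log2 ratios of 0.38, −0.93 and −0.62). In RC8, of 18 listed, Nfkbiz was lower (−2.29) and Ikbkg, the regulatory subunit of the IκB kinase, higher (1.29). In AS none of 19 passed 2-fold. Shares of all genes were 3.53% lower and 2.97% higher in RC8, and 3.22% and 0.622% in AS. The median log2 ratio was −0.01, −0.61 and −0.10 in the order AS, RC4, RC8, and −0.04, −0.30 and 0.01 over all genes. With the median gene set to 0, 3 genes were lower and 2 higher in RC4.

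All 18 genes of the group for AU-rich element binding and mRNA decay, which also holds the kinase genes Mapk14 and Mapkapk2, were listed. Zfp36, which codes for tristetraprolin and speeds the decay of mRNAs with AU-rich elements, had 32.9 RPM in AS as compared with 9.83 in NT, 13.4 in RC4 and 7.18 in RC8, the only one at least 2-fold higher (log2 ratio 1.74 in AS). Rc3h2, a Roquin gene, was lower in AS (−1.57). In RC4, Zc3h12a, whose product Regnase-1 cuts mRNAs of cytokines, was lower (−1.57), as were Zfp36l2 (−1.09) and Mapk14 (−1.04), and none was 2-fold changed in RC8. The 3 of 18 in RC4 stood beside 13.4% of all genes. For AS, the shares of all genes were 0.622% higher and 3.22% lower, and for RC8 they were 2.97% and 3.53%. Elavl1, which codes for HuR, had log2 ratios of 0.07, −0.01 and 0.08. With the median gene set to 0, 1 gene was lower in RC4. Median log2 ratios were −0.31, −0.49 and −0.18 in the order AS, RC4, RC8, as compared with −0.04, −0.30 and 0.01 over all genes.

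**Figure D5:**
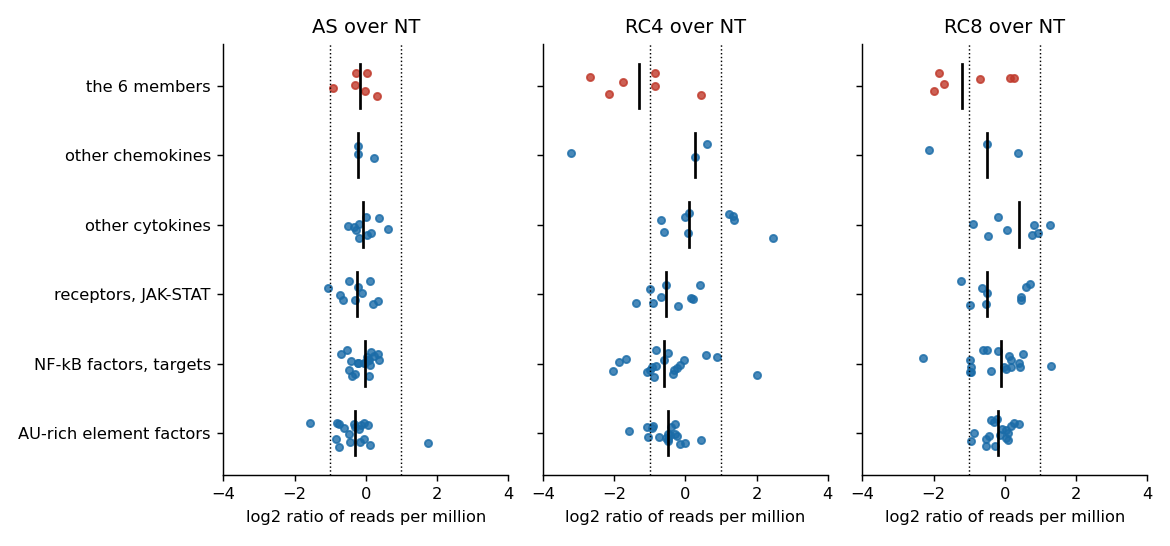
Log2 ratios of RPM over NT for the 6 genes (red) and the listed genes of 5 groups (blue), each point 1 gene, with the median as a black line and dotted lines at 2-fold. The points of the 6 genes reach −2.68 in RC4, and the other cytokine genes reach 2.47 there.

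Most markers of fibroblasts were also lower than NT in recovery, 12 of 13 in RC4 and 11 of 13 in RC8. Most of all genes were below NT in RC4 too, where the upper quartile of their log2 ratio was 0.07, but not in RC8 (median 0.01). The markers had a median log2 ratio of −0.06 in AS, −0.58 after 4 h and −0.80 after 8 h of recovery, as compared with −0.04, −0.30 and 0.01 over all genes. None was 2-fold lower in AS, 3 were in RC4 (Pdgfrb, −2.18; Col3a1, −1.45; Pdgfra, −1.30) and 4 in RC8 (Col3a1, −1.79; Pdgfra, −1.58; Pdgfrb, −1.34; Col1a2, −1.10). The shares of all genes at least 2-fold lower were 3.22% in AS, 13.4% in RC4 and 3.53% in RC8. Cd14, the 1 leukocyte marker listed in all tables, had 21.2 RPM in NT and 22.5 in AS, then 8.65 in RC4 and 8.18 in RC8. With the median gene set to 0, 2 fibroblast markers were 2-fold lower in RC4, and Cd14 was not. The part of these markers in the changes of the chemokine genes was not tested.

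Over the log2 ratios of AS, RC4 and RC8, the genes with the most similar profile were found for each of the 6. Likeness was measured as the Euclidean distance between the 3 ratios, among 7814 genes with at least 200 reads in every library, and since the ratios share NT it is given as a description. Ccl7 had rank 4 from Ccl2, at a distance of 0.48, and Ccl2 had rank 13 from Ccl7. From Cxcl1, Ccl2 had rank 8 (0.85) and Ccl7 rank 16 (1.12), whereas Cxcl1 had rank 33 from Ccl2 and rank 181 from Ccl7. The nearest genes to Ccl2 were Sdhd (0.31), a subunit of succinate dehydrogenase, Cebpb (0.31), the transcription factor C/EBPβ, and Nadk2 (0.46). Those of Ccl7 were Hgf (0.14), the hepatocyte growth factor, ENSMUSG00000092649 (0.21) and Tmem119 (0.25), and those of Cxcl1 were Fgf10 (0.55), a growth factor, Mvd (0.56), an enzyme of cholesterol synthesis, and Bpgm (0.77). For Lif they were Arhgap35, Nrp2 and Prrc2a (0.11 to 0.16). Cxcl12 and Csf1 had neighbours at 0.03 to 0.04, among them Mrpl50, Psmc3ip and Tmx2 for the former and Tmod3, Htr1f and Gm23374 for the latter. For Lif, Cxcl12 and Csf1 these distances are smaller than the width of the counting intervals of their own ratios. For Cxcl12 in RC4, that interval is −1.05 to −0.62. Which genes come out nearest to these members thus depends on counting error.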

How the data were processed

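The reads of the QuantSeq FWD libraries were trimmed by the authors with bbmap, mapped to mm9 with STAR (version 2.5.2a per the submitters' processing notes) and assigned to genes and PASs of PolyA_DB v3 with MAAPER, for genes with at least 50 reads and PASs at a threshold of 5%. The deposited counts are whole, unnormalized reads per gene, and 2 columns per library were added. What these columns are is not given in the sources used here, and they were not taken as replicates because the labels give 1 sample per condition. The deposited fractions are the shares of a gene's reads at each PAS. In each table, condition 1 was read as NT and condition 2 as the treated library, from the methods. Columns with the authors' own P values, RED and RLD scores were not used, and REDu was computed from the fractions. QuantSeq REV libraries were not analysed here.

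Counts were divided by the total on genes (79.5% to 82.3% of the read number the study gives per library). Intervals are exact Poisson for levels, exact conditional binomial for ratios and Wilson for fractions, all at 95%. A 2-fold ratio or 10 percentage points of a PAS fraction counted as a change. The ratio calculation and its interval were run on simulated Poisson counts with planted changes. Such counts hold no PCR copies and no spread between cultures. Named genes were the 6 members, up to 4 genes past 2-fold per list and direction, and the 3 nearest profiles per member (smallest Euclidean distance); others named (Ccl8, Ccl25, Ackr3, Il6st, Lifr, Nfkbia, Elavl1, Csf1r) were chosen after their values were seen. Members and lists were chosen with earlier results of these data known. From the receptors and signal transducers, 1 gene was left out of the list and its counts. The genome was NCBIM37 (mm9) with GENCODE vM1; 8794 of the 10690 genes had an annotated 3′UTR. Python 3.11.15, pandas 2.3.3 and scipy 1.17.1 were used.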

Additional observations from a re-analysis of the deposited data

How the results depend on the processing

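The directions and 2-fold calls of the 6 genes were the same when levels were scaled to the library read numbers of the study, to genes in all 3 tables or to the median gene, with either count column alone, with NT from another table, and among genes with at least 200 reads. An exception is the direction in AS of Cxcl12 (−0.10 to 0.16 over these settings) and Csf1 (−0.05 to 0.02), whose intervals include 0. Scaling to the median gene moved the log2 ratios most, by 0.30 in RC4. At a fold of 1.5, 1 member was lower in AS (11.4% of all genes), 5 were lower in RC4 (31.8%) and 4 in RC8 (11.9%), as compared with 0, 3 and 3 at 2-fold. At 5 percentage points, 1 member had a changed PAS fraction in AS and 2 in RC4 (42.6% and 59.2% of all genes with several PASs). Within the 3′-most exon, 0 members changed by 10 points in RC4. Csf1, the only member with several PASs there, stayed below this threshold, and Cxcl12 has 1 PAS there. No member had several such PASs in AS or RC8. No paired analysis was possible because each condition has 1 library. Depth limits Lif and Cxcl12 most, with 282 to 747 reads per library.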
